A study of Homo sapiens with 10 samples.

Results

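The transcriptome of HEK293T cells that overexpressed BRSK2 for 24 h (3 samples) was compared with that of cells given hcRED for 24 h (2 samples), hcRED being a red fluorescent protein, and of Mock cells (2 samples). HEK293T is a transformed human embryonic kidney cell line. These 7 samples were chosen by their labelled genotype out of the 10 in the series, and the other 3 overexpressed BRSK1. RNA was sequenced and reads were counted per gene, and all genes were examined rather than chosen pathways. The labels do not give the construct, the mutation status of the kinase, the way the DNA was introduced or the share of cells that took it up, and do not say that samples of a group came from separate cultures. Every p-value therefore rests on how far these samples differ from each other, and that spread may be technical.

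BRSK2 is a serine/threonine kinase of the AMPK-related family. Like its relatives it is switched on when LKB1 phosphorylates the activation loop of its kinase domain, and it is best known in the nervous system, where it acts with BRSK1 in neuronal polarity and in the handling of synaptic vesicles. Kinases of this family act by phosphorylating other proteins, while the measurements here are of transcripts after 24 h.

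The 7 libraries held between 16516116 and 21228385 counts, and 16936 of the 58676 listed genes passed a filter on low counts and were tested. Libraries of one group spread by 8.06% (biological coefficient of variation over all 10 libraries). BRSK2 replicate 1 stood apart within its group: its genes lay a median of 0.0989 on the log2 scale from the mean of the 3 BRSK2 libraries, against 0.0743 and 0.0705 for replicates 2 and 3. Mitochondrially encoded transcripts took 5.29% to 6.11% of the counts in the BRSK2 libraries, 5.82% and 6.48% in hcRED and 7.17% and 7.88% in Mock, and their part in the results below was not tested. Of 16 genes typical of the HEK293 lineage, 15 stood at 1 CPM (a count relative to its library's total, on the counts-per-million scale) or more in all 7 libraries, with a summed level of 771 to 817 CPM with BRSK2 and 770 to 848 CPM in controls. Of the markers of other cell types, 6 epithelial, 5 fibroblast, 5 neuron, 3 muscle, 2 endothelial, 2 blood and 0 liver genes passed the filter, too few to say more than that 0 of them were called. The genes PTPRC, CD3E, EMCN, AFP, APOB and MYOG were at 0 counts in all 7 libraries.

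The dose of BRSK2 differed between its libraries. BRSK2 (ENSG00000174672, protein coding, hg38 chr11:1389899-1462689, plus strand) took 1328329, 1927258 and 1711791 counts in replicates 1, 2 and 3. As a share of each library's total this was 6.993% in replicate 1 (95% exact Clopper-Pearson interval 6.981% to 7.004%), 9.079% in replicate 2 (9.066% to 9.091%) and 10.36% in replicate 3 (10.35% to 10.38%), intervals that cover counting error only. The highest BRSK2 library thus held 1.48 times the share of the lowest, and the mean was 8.81% ± 1.70 (SD, n = 3). In the controls the gene stood at 80.7 and 73.5 CPM of total counts with hcRED and at 99.0 and 95.2 CPM in Mock. The lowest BRSK2 library was 706 times above the highest control, and the counts do not separate introduced from endogenous transcript. The related kinase BRSK1 stood at 20.6, 29.4 and 28.3 CPM (scaled with TMM factors, as are all levels from here on) in the BRSK2 libraries, 17.7 and 27.3 with hcRED and 14.1 and 10.2 in Mock, groups that overlapped, and it did not pass the test (log2 fold change 0.66 ± 0.24 SE, adjusted p = 0.157).

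**Figure D1:**
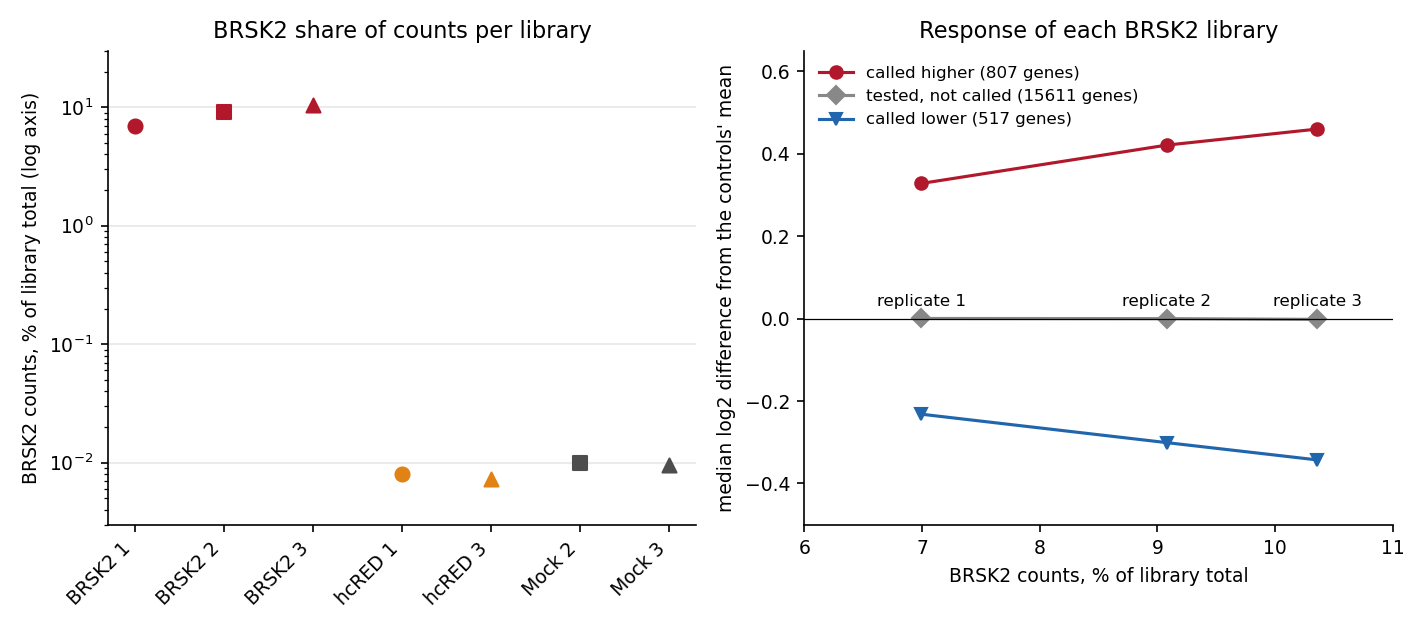
Left, BRSK2 counts as a percentage of each library's total on a log axis, 1 point per library; the 3 BRSK2 libraries lie between 6.993% and 10.36% and the 4 controls between 0.007352% and 0.009905%. Right, the median log2 difference of each BRSK2 library from the mean of the controls for genes called higher, called lower and not called, against the BRSK2 share of that library; for the called genes the medians lie farther from 0 where the share is higher.

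The size of the response followed the same order as the dose across the 3 libraries, which are too few for a correlation. For the 807 genes called higher other than BRSK2, the median log2 difference from the controls' mean was 0.328 in replicate 1, 0.421 in replicate 2 and 0.460 in replicate 3. The 517 genes called lower had medians of -0.232, -0.301 and -0.343 in the same order. Since all 3 libraries entered the calls, these medians describe the called genes and are not a separate test. The 15611 genes not called lay at a median absolute difference of 0.144, 0.163 and 0.172, so replicate 1 was also the library closest to the controls among the genes without a call. When the calls were made without the library in question, the 1140 genes called higher from replicates 2 and 3 had a median of 0.238 in replicate 1 and 0.417 in the libraries used, and 1016 of them lay above the controls there. The 273 genes called higher from replicates 1 and 2 had a median of 0.524 in replicate 3 against 0.464 in the libraries used, and all 273 lay above the controls. For the 445 genes called higher from replicates 1 and 3 the medians were 0.426 in replicate 2 and 0.450 in the libraries used. Among genes called lower, replicate 1 stood at -0.108 where the libraries used stood at -0.293 (1069 genes), replicate 2 at -0.260 against -0.339 (195 genes), and replicate 3 at -0.432 against -0.340 (72 genes). The same controls entered these calls, which favours the same side in the left-out library. The values of the left-out libraries are thus not a separate test either.

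Gene by gene, 311 of the 807 called higher (38.5%) had levels that rose from the library with the least BRSK2 to the library with the most, and 199 of the 517 called lower (38.5%) had levels that fell in that order. Of the genes not called, 18.3% rose and 18.5% fell in that order. The called genes were lowest in replicate 1 for 62.7% of those called higher, and highest in replicate 1 for 60.9% of those called lower. Replicate 1 differs from the other libraries in the ways given above as well as in its BRSK2 level, and these cannot be told apart with 1 library.

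BRSK2 was set against the average of both control groups, and 1325 of 16936 genes (7.82%) were called, that is, had an adjusted p under 0.05 in edgeR's quasi-likelihood test. Of all tested genes 808 (4.77%) were called higher, BRSK2 included, and 517 (3.05%) lower. With no test at all, the 3 BRSK2 libraries lay above all 4 controls for 1539 genes (9.09%) and below all 4 for 1389 (8.20%). Both the test and the separation of the groups held for 707 higher and 439 lower genes. In bulk RNA, more cells with a transcript and more transcript per cell cannot be told apart. Most changes were small: the median log2 fold change was 0.40 among the 807 genes called higher other than BRSK2 and -0.28 among those called lower. A log2 change of 1 or more was reached by 83 of the higher and 7 of the lower genes, one between 0.5 and 1 by 201 and 55, and one under 0.25 by 100 and 155. These counts take in genes at low levels, where a rise could be called more readily than a fall. Among called genes of at least 5 CPM in the higher group with the groups apart, the 20 strongest rises ran from 0.92 to 2.43. The 20 strongest decreases there ran from -0.88 to -0.57. Without BRSK2 replicate 1, 1142 genes (6.76% of the 16902 then tested) were called higher and 1069 (6.32%) lower. Leaving out BRSK2 replicate 2 gave 641 calls in all, and leaving out BRSK2 replicate 3 gave 346. Among the controls, 648 calls were left when hcRED replicate 1 was dropped, 800 for hcRED replicate 3 and 775 for Mock replicate 3, so the count rests on which libraries are used. When libraries were scaled by their totals alone, in which BRSK2 itself takes its share, the median of all genes moved to -0.102 and the split became 494 higher and 2507 lower.

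The share of calls in each direction differed with the level of the gene in the controls, a level that also enters the fold change and, at the low end, the filter. When tested genes were divided into 5 equal bands by their mean in the controls, 1.98% of the lowest band (up to 1.25 CPM) were called higher and 0.118% lower. In the middle band, from 7.91 to 27.7 CPM, 6.88% were called higher and 2.36% lower. In the highest band, from 68.8 CPM, 4.49% were called higher and 7.23% lower. The median log2 fold change of all genes in these 3 bands was 0.164, 0.020 and -0.043. The standard error of a log2 fold change had a median of 0.495 in the lowest band and 0.0627 in the highest, so small changes could be called only at high levels.

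**Figure D2:**
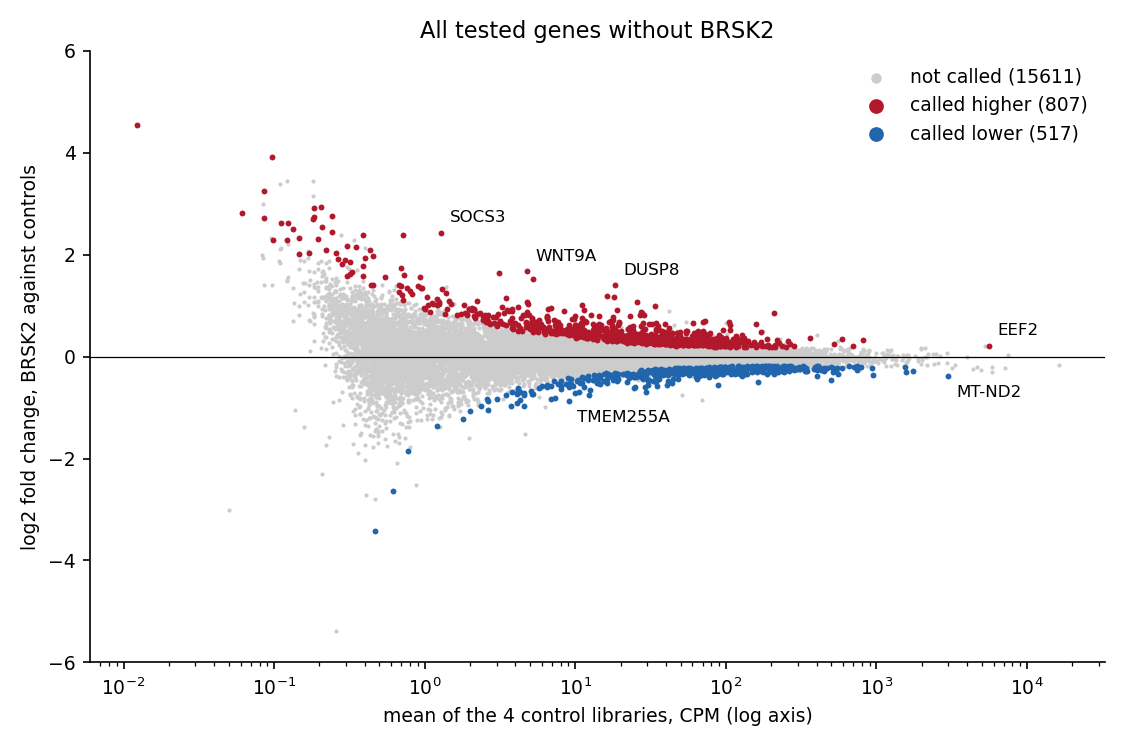
Log2 fold change with BRSK2 (vertical axis) against the mean level in the 4 controls in CPM on a log axis, 1 point per tested gene without BRSK2 itself. Genes called higher (807) spread over low, middle and high levels. Those called lower (517) lie mostly at middle and high levels, and 7 of them reach a log2 fold change of -1 or beyond.

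The strongest rises among genes of at least 5 CPM in either group were those of SOCS3, WNT9A, ZC3H12A, RELB and DUSP8. SOCS3 (ENSG00000184557, chr17:78356778-78360077, minus strand), which blocks JAK-STAT signalling downstream of cytokine receptors, stood at 5.91, 7.12 and 7.75 CPM in BRSK2 replicates 1, 2 and 3. Its level was 1.27 and 1.12 CPM in the hcRED libraries and 1.61 and 1.14 CPM in Mock. The groups were far apart, with a 5.37-fold rise (log2 fold change 2.43 ± 0.23 SE, adjusted p = 4.24e-07). WNT9A (chr1:227918656-227947898, minus strand), a secreted Wnt ligand, stood at 14.1, 14.1 and 17.5 CPM with BRSK2, 4.94 and 5.18 with hcRED and 4.59 and 4.35 in Mock (adjusted p = 2.48e-08). All 3 BRSK2 libraries were well above the 4 controls, which differed little from each other, and the rise was 3.19-fold. ZC3H12A (chr1:37474552-37484379, plus strand), an endoribonuclease that degrades inflammatory messenger RNAs, stood at 8.15, 10.0 and 10.2 CPM against 3.20 and 4.21 with hcRED and 2.42 and 2.57 in Mock (3.11-fold, adjusted p = 1.42e-06). RELB (chr19:45001430-45038198, plus strand), a subunit of NF-kB, stood at 13.6, 13.4 and 17.0 CPM against 4.99 and 7.97 with hcRED and 3.38 and 4.50 in Mock (2.89-fold, adjusted p = 2.22e-06). For both genes every BRSK2 library lay above every control, and hcRED replicate 3 was the highest control.

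DUSP8, a phosphatase that inactivates MAP kinases, followed with a 2.63-fold rise, and it lies close to BRSK2 itself on chromosome 11 (chr11:1554044-1571920, minus strand). Its levels were 39.9, 51.2 and 50.4 CPM with BRSK2, 18.8 and 25.6 with hcRED and 14.5 and 14.5 in Mock (log2 fold change 1.40 ± 0.16, adjusted p = 0.000753). The groups did not overlap, and both hcRED libraries were above both Mock libraries. Since the deposited table lists 45 genes within 500 kb of BRSK2, the neighbours were examined as a set: 14 were tested and 1, DUSP8, was called, a share near that of all tested genes given above. Without BRSK2 replicate 1, TOLLIP (adjusted p = 0.00478), IFITM10 (0.0246) and AP2A2 (0.0343) were called beside DUSP8 (0.000713). In that run 6.76% of all tested genes were called higher and 6.32% lower, and the neighbours' share lay above these. The set is small, and no result is read from it. The tested gene closest to BRSK2, MOB2, a regulator of NDR kinases, stood at 24.8, 28.4 and 24.7 CPM with BRSK2, 24.5 and 28.7 with hcRED and 24.0 and 24.1 in Mock, which is a log2 fold change of 0.04. The 6 uncalled neighbours of at least 1 CPM in the controls, among them TOLLIP and CTSD, had log2 fold changes between -0.19 and 0.21, and the 7 under 1 CPM had adjusted p from 0.0527. No listed gene overlapped BRSK2. The 5′ end of DUSP8 overlaps the antisense gene KRTAP5-AS1, and without a stated strand setting the reads of the overlap cannot be assigned to one of them.

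The promoter windows of DUSP8 and ZC3H12A are shown because these genes are among the strongest rises and each window holds a match to a searched motif other than E-box and GC box. The windows run from 250 bases before to 50 bases after a RefSeq start (GRCh38.p14) and are written 5′ to 3′ on the strand of the gene, with the match to that motif in capitals. Matches to E-box and GC box, which both windows also hold, are not marked as such. The DUSP8 window is chr11:1572222-1572521 on the minus strand, and its start lies 351 bases from that of the counted gene. It holds the palindromic cAMP response element TGACGTCA at 2 places, which begin 118 and 74 bases before the start, and each of them overlaps an E-box match (CANNTG). The ZC3H12A window is chr1:37474330-37474629 on the plus strand, 28 bases from the counted gene's start, with a match to the TATA box (TATAAA) that begins 27 bases before the start.
DUSP8: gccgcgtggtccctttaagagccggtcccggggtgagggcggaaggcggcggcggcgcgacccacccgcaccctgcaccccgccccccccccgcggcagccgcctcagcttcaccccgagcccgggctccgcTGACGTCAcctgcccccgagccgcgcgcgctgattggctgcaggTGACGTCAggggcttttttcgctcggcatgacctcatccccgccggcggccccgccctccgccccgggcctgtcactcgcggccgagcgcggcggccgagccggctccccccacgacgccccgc
ZC3H12A: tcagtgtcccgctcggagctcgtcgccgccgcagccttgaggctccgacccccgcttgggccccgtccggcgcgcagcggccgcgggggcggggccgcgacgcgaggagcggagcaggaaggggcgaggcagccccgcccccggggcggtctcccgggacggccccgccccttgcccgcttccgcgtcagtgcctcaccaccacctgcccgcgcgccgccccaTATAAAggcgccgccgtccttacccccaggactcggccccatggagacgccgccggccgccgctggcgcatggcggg
Both strands of all 35116 RefSeq windows of this length were searched, and 1.85% held TGACGTCA and 11.5% held TATAAA. The matches describe the sequence and not a site of binding. The window of WNT9A held no match to the motifs other than E-box and GC box, and RELB had no entry. The SOCS3 window nearest to the counted gene's start held an E-box and a TEAD match but lay 410 bases from that start. These windows are therefore not printed. A comparison of motif shares between called and other genes is void, because only 78.7% of the genes called higher had an entry.

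Kinases and phosphatases of signalling pathways made up the next group. PIM1, a serine/threonine kinase whose gene is induced by cytokines, stood at 35.0, 41.4 and 43.3 CPM with BRSK2 against 15.7 to 20.9 CPM in the 4 controls (2.23-fold, adjusted p = 2.48e-08). DUSP1, another MAP kinase phosphatase and an immediate early gene, stood at 45.4, 55.0 and 61.1 CPM, while its 4 controls all lay between 25.1 and 25.7 CPM. The controls were nearly level and every BRSK2 library stood far above them, a 2.11-fold rise (log2 fold change 1.07 ± 0.09, adjusted p = 2.48e-08). PTK2B, a non-receptor tyrosine kinase of the focal adhesion kinase family, stood at 4.16, 6.29 and 8.83 CPM against 2.87 to 3.57 CPM in controls (adjusted p = 0.00614). Its lowest BRSK2 library, replicate 1, was only just above the controls, and it was no longer called when BRSK2 replicate 3 was dropped (adjusted p = 0.093) or hcRED was the only control (0.0672).

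Stress and cell death regulators also stood among the 20 highest. PPP1R15A, which directs a phosphatase to the translation factor eIF2 alpha, stood at 49.0, 73.4 and 78.3 CPM with BRSK2, 34.3 and 44.8 with hcRED and 31.0 and 25.4 in Mock. BRSK2 replicate 1 was close to hcRED replicate 3, and the rise (log2 fold change 1.00 ± 0.19, adjusted p = 0.0256) was lost in 6 alternatives, with adjusted p up to 0.151. CHAC1, which degrades glutathione, stood at 11.3, 13.7 and 14.6 CPM, with hcRED at 8.52 and 7.87 and Mock at 5.70 and 5.69 (adjusted p = 0.00034). BBC3, a BH3-only protein that promotes apoptosis, stood at 29.3, 36.5 and 41.2 CPM against 18.2 to 19.4 CPM in the 4 controls (1.89-fold, adjusted p = 1.42e-06). For CHAC1 and BBC3 every BRSK2 library was above every control, and the level was lowest in replicate 1 and highest in replicate 3.

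Junction, matrix and transport genes completed the list with other transcription factors. AMOTL2, an angiomotin that binds YAP at cell junctions, stood at 27.4, 37.7 and 44.3 CPM with BRSK2 against 13.7 to 18.9 CPM in controls (2.27-fold, adjusted p = 1.67e-05). CHST8, a Golgi sulfotransferase, went the other way among the BRSK2 libraries, with 11.2, 9.78 and 8.52 CPM in replicates 1, 2 and 3 against 3.88 to 5.92 CPM in controls (adjusted p = 7.61e-05). It was the only one of the 20 with a lower level in replicate 3 than in replicate 1, and 14 of the 20 rose from replicate 1 through 2 to 3. The transcription factors EBF4 (1.01 ± 0.10) and CSRNP1 (0.92 ± 0.12), the ubiquitin ligase RNF165 (1.14 ± 0.18), the sugar epimerase RENBP (1.08 ± 0.15), the neuronal immediate early gene ARC (0.98 ± 0.18), the dicarboxylate transporter SLC13A3 (0.93 ± 0.13) and the matrix protein THBS3 (0.93 ± 0.18) also rose, values being log2 fold changes ± SE. In these 20 genes the log2 fold change ran from 0.92 to 2.43, or 0.94 to 2.53 without BRSK2 replicate 1, and 18 of them were called in every alternative run, the exceptions being PPP1R15A and PTK2B.

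**Figure D3:**
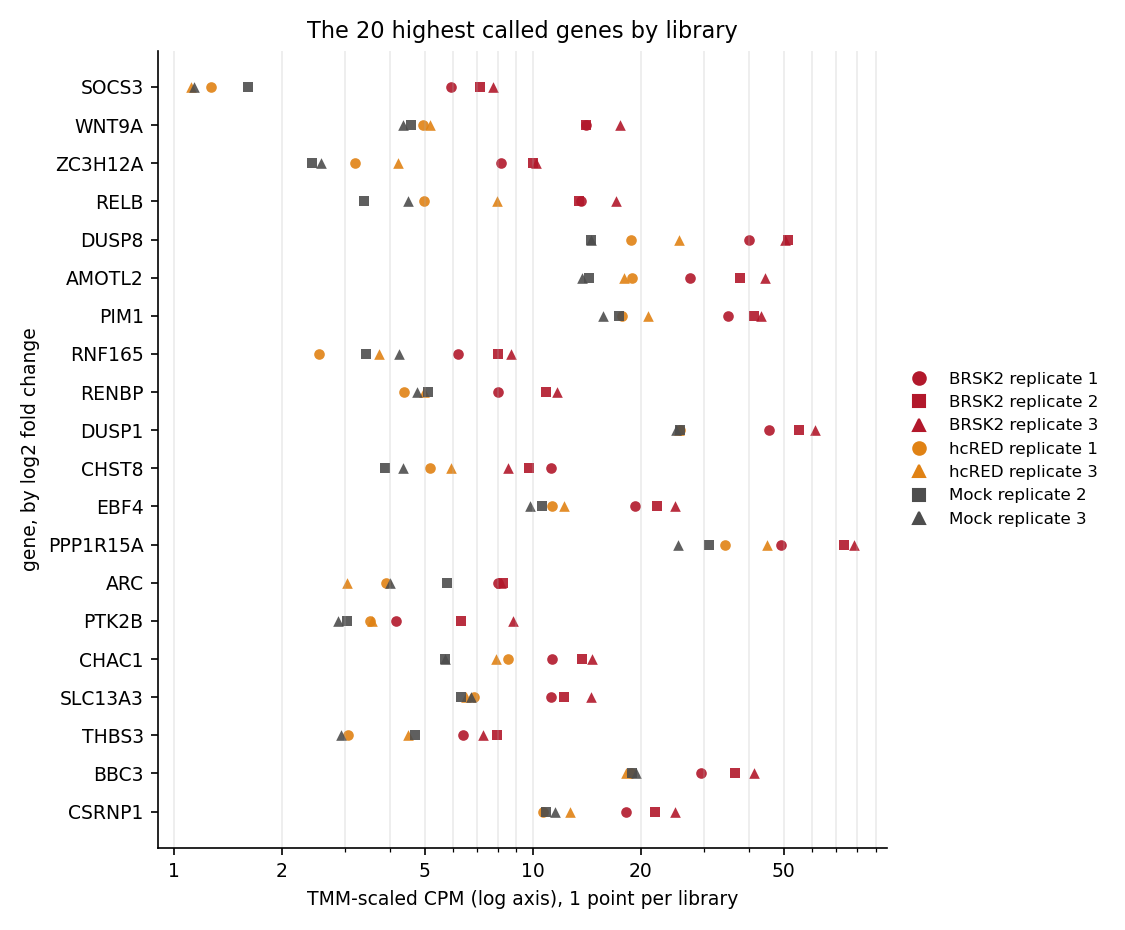
Level of the 20 highest called genes in each of the 7 libraries in TMM-scaled CPM on a log axis, with the group by colour and the replicate by shape. For each gene all 3 BRSK2 points lie to the right of all 4 control points; the gap is widest for SOCS3 and narrow for PPP1R15A and PTK2B, where BRSK2 replicate 1 lies near the controls.

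Decreases were smaller than the rises at the same rank. TMEM255A, a transmembrane protein, had the strongest decrease by the rule, from 7.83 to 9.69 CPM in the 4 controls to 5.47, 4.67 and 4.58 CPM in the BRSK2 libraries (log2 fold change -0.88 ± 0.14, adjusted p = 0.000462). RAB30, a small GTPase of the Golgi, stood at 4.65, 4.03 and 2.80 CPM with BRSK2 against 6.60 to 7.22 CPM in controls (-0.84 ± 0.18, adjusted p = 0.00541, and 0.0666 without BRSK2 replicate 3). HSPA2, a chaperone of the HSP70 family, stood at 4.81, 4.57 and 2.99 CPM against 5.89 to 8.52 CPM (-0.82 ± 0.18, adjusted p = 0.00676, and 0.0825 without BRSK2 replicate 3). For both, replicate 3 was the lowest library by a clear gap and the groups did not overlap.

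Receptors and kinases were among the other decreases. MAP2K6, the kinase that activates p38 MAP kinase, stood at 22.6, 17.1 and 14.7 CPM with BRSK2, 28.3 and 23.5 with hcRED and 29.3 and 37.5 in Mock (-0.70 ± 0.13, adjusted p = 0.00311, and 0.0701 against hcRED alone). BRSK2 replicate 1 was close to hcRED replicate 3, and replicate 3 was lowest. RAMP1, the partner subunit of the receptor for CGRP, stood at 5.80, 6.93 and 6.67 CPM against 11.9 and 11.8 with hcRED and 10.8 and 7.96 in Mock (-0.70 ± 0.15, adjusted p = 0.00417, and 0.0661 against Mock alone). SLITRK3, a synaptic adhesion protein, stood at 8.86, 7.12 and 7.88 CPM against 10.9 to 13.5 CPM in controls (-0.66 ± 0.13, adjusted p = 0.00221), and FGD6, an exchange factor for the small GTPase CDC42, at 6.24, 5.95 and 6.04 CPM against 9.13 to 10.9 CPM (-0.71 ± 0.13, adjusted p = 0.00146). Neither overlapped its controls, and the 3 BRSK2 libraries of FGD6 were nearly level. The tubulins TUBB2A (-0.57 ± 0.08, adjusted p = 0.000144) and TUBB4A (-0.60 ± 0.11, adjusted p = 0.00123) fell as well, with counts that close paralogs may share.

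The 20 lowest genes ranged from -0.88 to -0.57, and from -1.0 to -0.53 without BRSK2 replicate 1. Only 8 of these 20 were called in every alternative run: TMEM255A, ZNF587B, FGD6, SLITRK3, METTL7A, MAGEE1, TUBB4A and TUBB2A. Beside RAB30, HSPA2, RAMP1 and MAP2K6, which lost the call in 1 alternative each, the calls of EPHB3, POLR2J4, CCDC80, RP11-158H5.7, C9orf172, MED31, QRICH2 and ATP1B2 were lost in 4 to 7, with adjusted p up to 0.26. From replicate 1 through 2 to 3 the level fell in 13 of the 20.

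**Figure D4:**
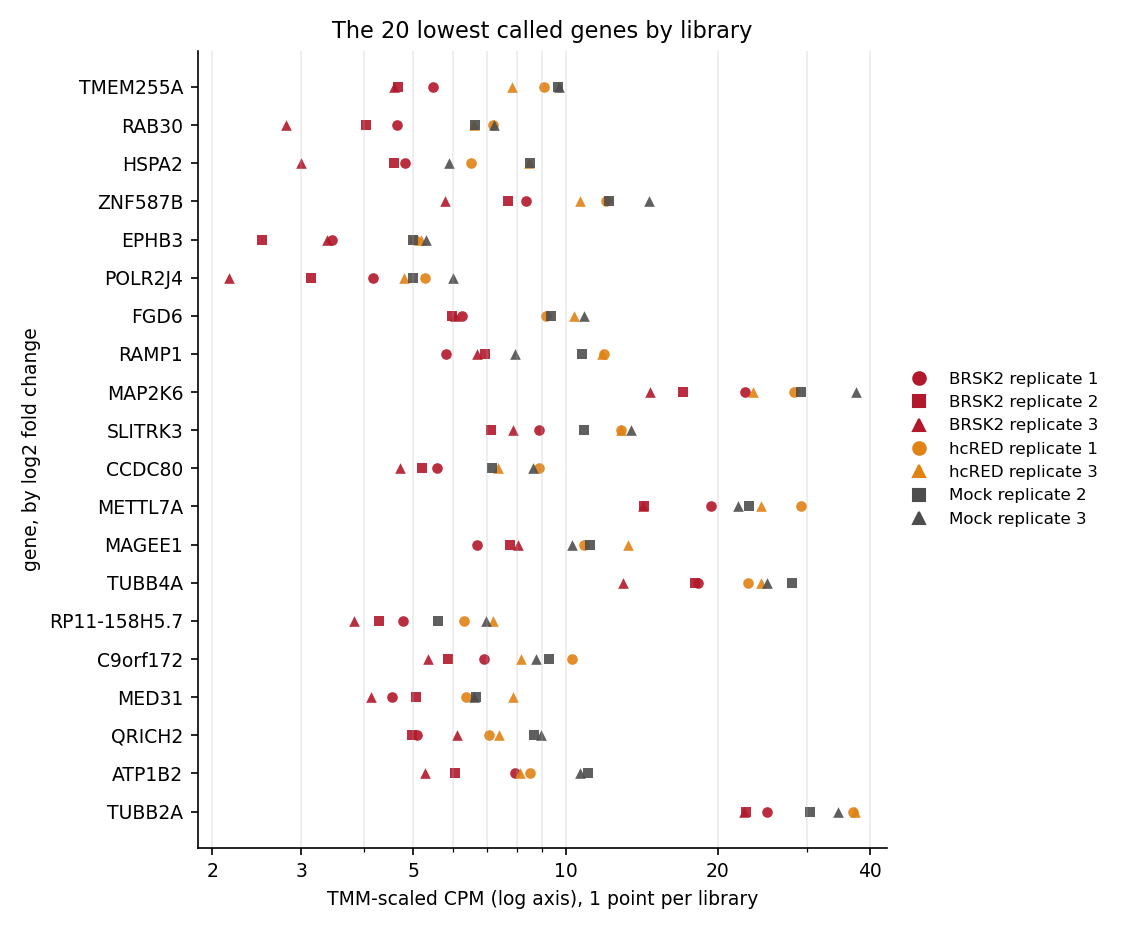
Level of the 20 lowest called genes in each of the 7 libraries in TMM-scaled CPM on a log axis, with the group by colour and the replicate by shape. All BRSK2 points lie to the left of all control points, with narrow gaps for MAP2K6 and ATP1B2, where BRSK2 replicate 1 lies near hcRED replicate 3.

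Across 46 gene families defined by symbol, the calls were uneven. Of all tested genes 4.77% were called higher and 3.05% lower, and these shares are the background for each family. This background takes no account of level, although the shares called differed with the level in the controls, as given above. Members and lists were chosen with earlier results of these data known, so a share above the background is a description and not a test. This holds most for lists made by hand, such as the feedback inhibitors. Negative feedback inhibitors of signalling, a list of SOCS, DUSP, SMAD, NF-kB and Wnt inhibitors and their like, had 19 of 102 tested members called higher (18.6%) and 0 lower, with a median log2 fold change of 0.054 against 0.002 for all tested genes. Its members include SOCS3, ZC3H12A, DUSP8, DUSP1 and AMOTL2 described above, the inhibitory SMAD7 (45.6, 51.8 and 50.8 CPM with BRSK2, 29.2 and 32.7 with hcRED, 26.8 and 24.7 in Mock; 0.81 ± 0.08, adjusted p = 3.4e-07), and the NF-kB inhibitor NFKBIA (18.8, 25.8 and 26.4 CPM against 14.7 to 17.1 CPM; 0.56 ± 0.12, adjusted p = 0.00606). SMAD7 stood higher in all 3 BRSK2 libraries by a wide gap, NFKBIA in replicate 1 by a narrow one. The remaining members called higher were NOTUM, PPP1R15A, IER3, KLF10, RGS16, TNFAIP3, PMEPA1, ZFP36L1, ZFP36L2, SOCS7, DUSP16 and AXIN1. Without BRSK2 replicate 1, 23 were called higher and 4 lower, and without replicate 2 or replicate 3, 12 were called higher and 0 lower. Under library totals alone 16 were called higher and 7 lower, and the median turned to -0.051 with that of all genes at -0.102.

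Several families of transcription factors stood on the same side. Basic leucine zipper factors, which include the AP-1 and MAF proteins, had 10 of 48 members higher (20.8%) and 0 lower. JUNB, an AP-1 subunit, stood at 21.2, 29.1 and 24.5 CPM with BRSK2 against 13.1 to 15.1 CPM in the 4 controls (0.80 ± 0.11, adjusted p = 5.18e-05), and MAFK, a small MAF protein, at 48.1, 59.4 and 52.9 CPM against 33.2 to 39.4 CPM (0.60 ± 0.08, adjusted p = 4.62e-05). Both were highest in replicate 2 and apart from every control. Basic helix-loop-helix factors had 13 of 70 higher (18.6%) and 1, TCF4, lower. The higher ones include the repressors HEY2 (15, 16.0 and 15.6 CPM against 9.24 to 11.7 CPM; 0.62 ± 0.11, adjusted p = 0.000907) and ID4 (100, 120 and 119 CPM against 82.5 to 93.9 CPM; 0.37 ± 0.07, adjusted p = 0.00146). MYC, the growth regulator, had a log2 fold change of 0.46 ± 0.08 (adjusted p = 0.00157), but its groups overlapped: BRSK2 stood at 95.9, 115 and 108 CPM, hcRED at 73.0 and 56.6 and Mock at 97.6 and 86.5. Against Mock alone its log2 fold change was 0.21 and it was not called (adjusted p = 0.222), nor was it with the 4 controls as 1 group (0.161). KLF, SP and EGR zinc finger factors had 4 of 33 higher, all of them KLF genes (KLF4, KLF6, KLF10 and KLF11), and 0 lower. The large family of zinc finger proteins named ZNF, with 26 of 438 higher (5.94%) and 16 lower (3.65%), and the homeobox factors, with 6 and 5 of 148, lay near the background. Without BRSK2 replicate 2 the leucine zipper and helix-loop-helix families had 5 and 8 members called higher, and without replicate 3, 6 and 7. Without replicate 1 the leucine zipper family had 17 higher and 0 lower, the helix-loop-helix family 15 and 5 and the KLF, SP and EGR family 5 and 1. Under library totals alone these 3 families had 8 higher and 5 lower, 9 and 7, and 4 and 5.

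Enzymes of signalling, chromatin and ubiquitin showed the next shares. Protein phosphatases had 14 of 135 higher (10.4%) and 1 lower, among them PTP4A3 and the members shared with the feedback list, DUSP1, DUSP8, DUSP16 and PPP1R15A. Kinases of the CAMK group, the branch of the kinome to which BRSK2 belongs, had 5 of 46 higher (10.9%) and 0 lower in a list without the BRSK genes, led by PIM1 and PIM3 (150, 173 and 180 CPM against 96.4 to 112 CPM; 0.67 ± 0.07, adjusted p = 1.04e-06). RING finger and TRIM ubiquitin ligases had 14 of 128 higher and 1 lower, led in p by TRIM11 (146, 151 and 161 CPM against 94.7 to 126 CPM; 0.52 ± 0.07, adjusted p = 5.18e-05). The list of histone acetylation genes, which also holds bromodomain readers and corepressors, had 9 of 48 higher (18.8%) and 2 lower, with HDAC5 at 116, 113 and 115 CPM against 87.0 to 97.5 CPM (0.33 ± 0.06, adjusted p = 0.000745). Histone lysine methylases and demethylases had 8 of 69 higher (11.6%) and 2 lower, led by KMT2B, a methylase of histone H3 lysine 4 (164, 174 and 176 CPM against 123 to 133 CPM; 0.42 ± 0.06, adjusted p = 7.71e-05). Single libraries carried part of these counts, and for the CAMK group 2 were called higher without BRSK2 replicate 2 or replicate 3. Without BRSK2 replicate 3, 7 phosphatases, 5 RING or TRIM ligases, 1 histone acetylation gene and 3 lysine methylases or demethylases were called higher, and without replicate 2 the counts were 10, 8, 2 and 3. Without replicate 1 there were 19 phosphatases higher and 8 lower, 13 and 7 ligases, 11 and 4 histone acetylation genes, 9 and 6 lysine methylases or demethylases and 7 and 2 CAMK kinases. Under library totals alone more members of each of these 5 families were called lower than higher.

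Among the families with more members called lower than higher were those of vesicle traffic, splicing, adhesion and mitochondrial translation. RAB and ARF small GTPases, which direct vesicle traffic, had 8 of 76 lower (10.5%). ARF4 stood at 132, 155 and 135 CPM with BRSK2 against 160 to 191 CPM in controls (-0.29 ± 0.06, adjusted p = 0.00571), and RAB1A at 104, 116 and 120 CPM against 130 to 135 CPM (-0.23 ± 0.06, adjusted p = 0.0156). Both lay below all 4 controls in all 3 libraries, with a narrow gap at the nearest points, and both lost the call against Mock alone (adjusted p = 0.0857 and 0.0654). The call of ARF4 was also lost without BRSK2 replicate 3 (0.066) and that of RAB1A without hcRED replicate 1 (0.0552). SR and hnRNP splicing proteins had 10 of 122 lower (8.20%) and 3 higher. Their median level in the controls was 105 CPM. Of all tested genes in the highest band, from 68.8 CPM, 7.23% were called lower, which is near the share of this family. RBM12, an RNA-binding protein, had the smallest p of the splicing proteins, at 121, 118 and 111 CPM against 152 to 175 CPM (-0.50 ± 0.06, adjusted p = 1.12e-05). Mitochondrial ribosomal proteins had 6 of 76 lower (7.89%) and 1 higher, with MRPL41 at 88.6, 95.8 and 85.7 CPM against 103 to 116 CPM (-0.27 ± 0.06, adjusted p = 0.0074, lost without BRSK2 replicate 3 at 0.084 and against Mock alone at 0.0992). Cadherins and protocadherins, the cell adhesion receptors, had 4 of 39 lower, all protocadherins, and 1 higher, the atypical cadherin CELSR3. PCDH9 stood at 68.3, 53.8 and 54.0 CPM against 71.8 to 86.1 CPM (-0.41 ± 0.08, adjusted p = 0.00395), with replicate 1 near the controls and the call lost without BRSK2 replicate 3 (0.053). These counts of lower members were small and fell to 1, 1, 0 and 0 without BRSK2 replicate 3, and to 4, 2, 4 and 3 without replicate 2. Without replicate 1, RAB and ARF GTPases had 13 lower and 1 higher, and splicing proteins 16 and 9. Mitochondrial ribosomal proteins then had 5 lower and 2 higher, and cadherins and protocadherins 5 and 1. Cytosolic ribosomal proteins, at a median of 604 CPM per gene in the controls, had 0 of 85 called in either direction.

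**Figure D5:**
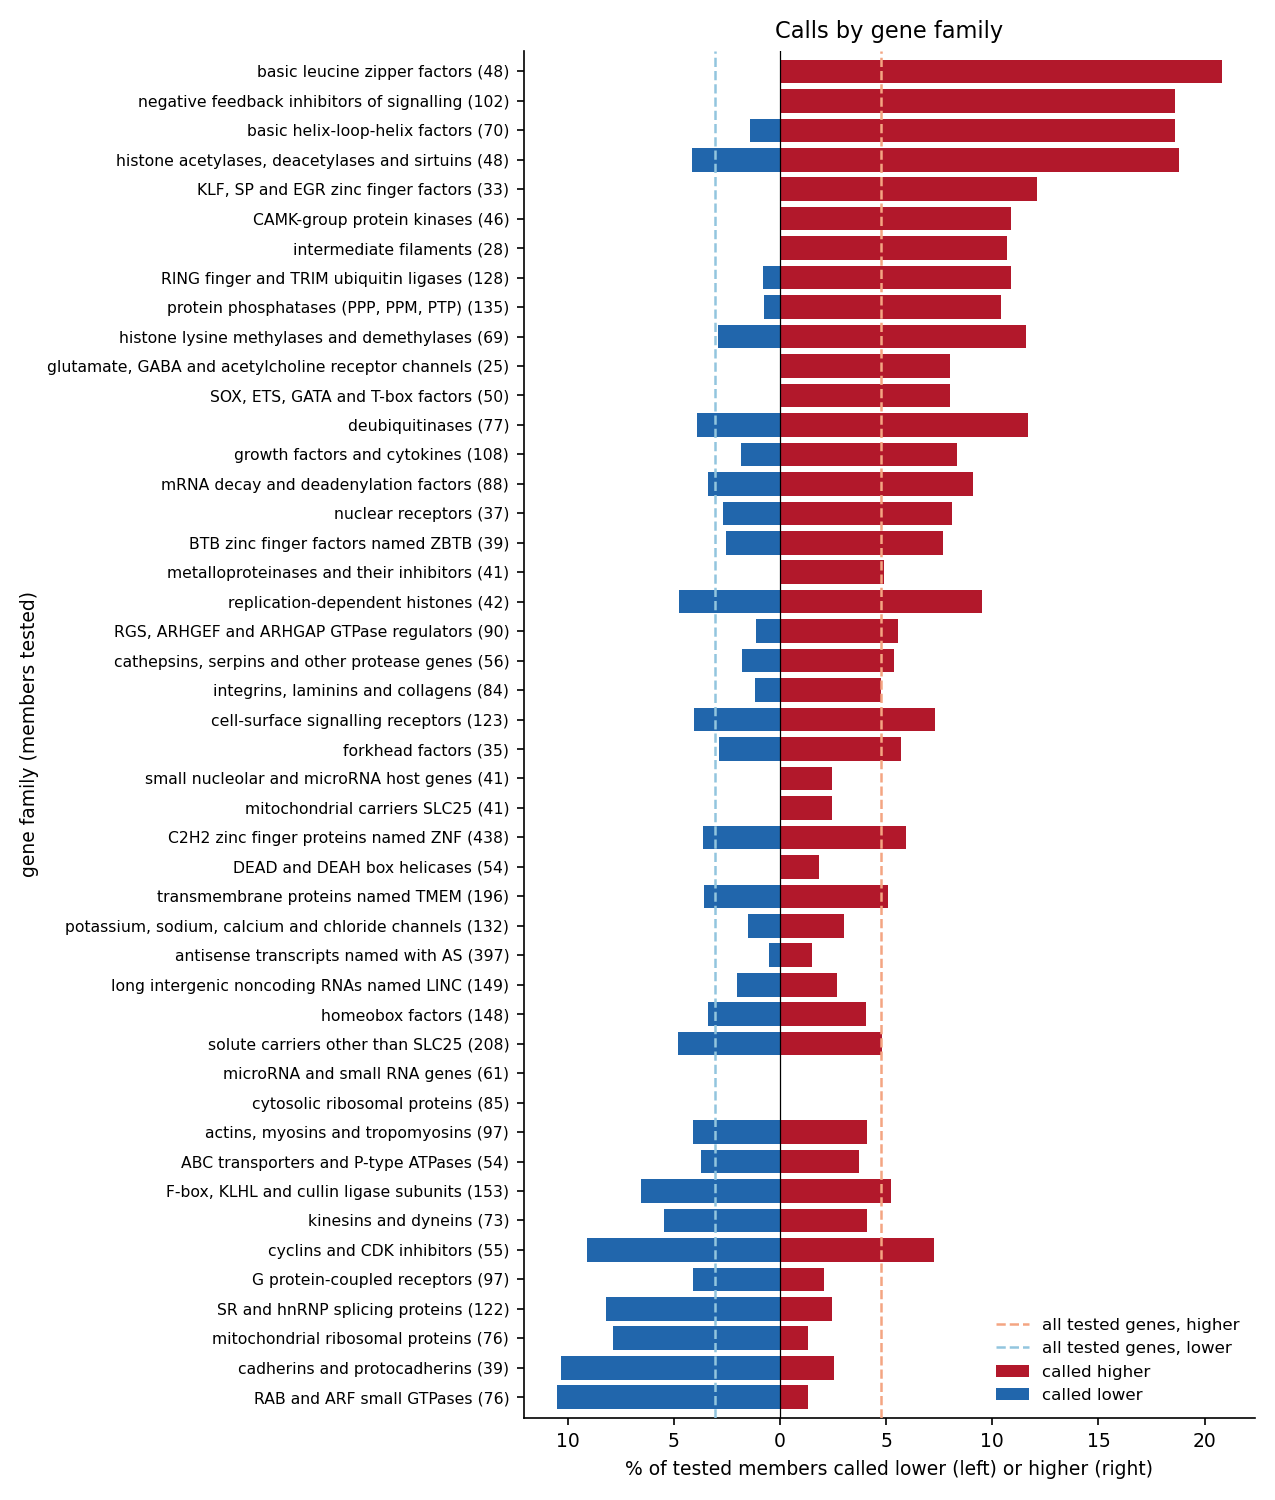
Share of tested members called higher (right) and lower (left) in each of the 46 gene families, in percent, with the number of tested members in brackets and the shares of all tested genes, 4.77% and 3.05%, as dashed lines. Basic leucine zipper factors and negative feedback inhibitors show the highest shares on the right with 0 on the left, and RAB and ARF small GTPases and cadherins the highest shares on the left. The lists were chosen with earlier results of these data known.

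The 807 genes called higher other than BRSK2 gained 9900 CPM over 39600 CPM in the controls, and the 517 called lower dropped by 10600 CPM from 62600 CPM, sums that follow the choice of called genes and the TMM scaling, which centres most genes. The largest gain belonged to the translation elongation factor EEF2, at 6700, 6180 and 6400 CPM with BRSK2 against 5400 to 5770 CPM in controls (log2 fold change 0.21 ± 0.07, adjusted p = 0.0473). Its groups did not overlap, yet this call was lost in 13 of the alternatives run. CDT1, which licenses replication origins, combined a large gain with a high fold change: it stood at 355, 372 and 402 CPM against 198 to 234 CPM (1.80-fold, adjusted p = 2.48e-08). EIF3A, a subunit of a translation initiation factor (1040, 1000 and 1040 CPM against 782 to 878 CPM; adjusted p = 0.00103), the RNA-binding protein RBMX (733, 743 and 767 CPM against 586 to 597 CPM; adjusted p = 0.000672) and the stress-induced SESN2 (211, 261 and 265 CPM against 143 to 186 CPM; adjusted p = 6.47e-05) also gained. JUN, BRD2 and MCM7 completed the 8 largest gains.

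The largest loss was in the mitochondrially encoded MT-ND2, a subunit of respiratory complex I, at 2460, 2240 and 2090 CPM with BRSK2, 2450 and 2760 with hcRED and 3160 and 3500 in Mock. BRSK2 replicate 1 overlapped hcRED replicate 1, both hcRED libraries were below both Mock libraries, and the call (adjusted p = 0.0141) was lost in 7 alternatives, among them hcRED as the only control (0.333). It was the only gene called of 16 tested on the mitochondrial chromosome (6.25%, with 3.05% of all tested genes called lower), and the median log2 fold change of the 16 was -0.207 against 0.002 for all tested genes. HSPA8, the constitutive HSP70 chaperone, stood at 1330, 1280 and 1190 CPM against 1540 to 1630 CPM in controls (-0.31 ± 0.07, adjusted p = 0.00417, and 0.0685 without BRSK2 replicate 3). The beta tubulin TUBB4B stood at 405, 359 and 316 CPM against 468 to 537 CPM (-0.46 ± 0.08, adjusted p = 0.000678). Both were lowest in BRSK2 replicate 3 and apart from every control. The glycolytic genes PKM, LDHA and TPI1 were also among the 8, and each lost its call against hcRED alone (adjusted p = 0.22, 0.0972 and 0.223). HNRNPU, whose call (adjusted p = 0.0475) was lost in 14 alternatives with adjusted p up to 0.271, and HMGB1, which lost it without BRSK2 replicate 3 (0.0793), made up the rest.

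Genes near the limit of detection in control cells could be called in the upward direction far more readily than in the other, since a gene low in the controls could pass the filter through libraries where it was higher. Of 2914 tested genes with a control mean under 1 CPM, 57 were called higher and 3 lower, counts from which no direction is read. IL16, a cytokine, had 18, 28 and 29 counts in BRSK2 replicates 1, 2 and 3, 5 and 4 with hcRED and 5 and 1 in Mock. LHX3, a homeobox factor of pituitary and motor neuron development, had 17, 27 and 16 counts with BRSK2, 6 and 9 with hcRED and 2 and 0 in Mock. FUT3, a fucosyltransferase, had 25, 16 and 25 counts with BRSK2, 4 and 13 with hcRED and 2 and 1 in Mock. In each of these the BRSK2 libraries were above the controls. IL16 kept its call in all alternatives that tested it, while LHX3 (adjusted p = 0.131) and FUT3 (0.133) lost it with hcRED as the only control. B3GNT7, CFAP161, TMEM236, LA16c-306A4.2 and the pseudogene IFNA22P, which had 1, 9 and 7 counts against 0 and 1 with hcRED and 0 in Mock, made up the rest of the 8 with the highest fitted changes, for which no fold is given at such counts. These 5 also lost their calls with hcRED as the only control, with adjusted p from 0.149 to 0.35. Among the 57, the hcRED mean exceeded the Mock mean in 46 (80.7%), against 54.3% of the uncalled genes at these levels. Over all 807 genes called higher the hcRED mean was above Mock in 491 (60.8%), with a median log2 difference of hcRED from Mock of 0.05. Of the genes not called, it was above Mock in 7722 of 15611 (49.5%). For genes called lower it was below Mock in 256 of 517 (49.5%).

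By gene type, 772 of 13619 protein-coding genes were called higher (5.67%) and 500 lower (3.67%). Long intergenic RNAs had 14 of 802 higher and 6 lower, and antisense RNAs 9 of 1049 higher and 2 lower. Both kinds had median control levels under 1 CPM, 0.907 and 0.842, where few genes of any type were called. NUP50-AS1, listed as a long intergenic RNA though its name marks it as antisense to NUP50 and chosen after its values were seen, stood at 6.57, 6.98 and 6.48 CPM against 3.06 to 4.13 CPM (adjusted p = 0.00142), and without a stated strand setting the reads of an overlapping gene could not be set apart. Of the autosomes, chromosome 22 had the highest share called higher, 34 of 460 (7.39%), with 6 lower, and chromosome 17 followed with 71 of 1074 (6.61%) and 40 lower. Chromosomes 4, 13 and 18 had more genes called lower than higher, 26 against 15 of 597, 16 against 9 of 296 and 11 against 9 of 241, where all tested genes had 3.05% lower and 4.77% higher.

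How far the result depends on the kind of control was examined next. Between hcRED and Mock 5 of 16936 genes passed (0.0295%), while 1517 had an unadjusted p under 0.05 and DESeq2 called 52. With hcRED as the only control, 376 genes were called higher and 230 lower with BRSK2, and with Mock as the only control 598 and 333. Against BRSK1, the related kinase overexpressed in the same experiment, 59 genes passed (0.348%), 39 higher and 20 lower with BRSK2, counting both kinase genes. In 779 of the 807 genes called higher other than BRSK2, the BRSK1 mean was also above that of the controls. Both kinases share these controls, which entered the calls and favour this side. The share among all tested genes was not counted, so no shared response is read from this number. Of the 20 genes highest against the controls, SOCS3, WNT9A, RELB, DUSP1, CHST8, ARC and CHAC1 were higher with BRSK2 than with BRSK1. SOCS3 had a mean of 2.16 CPM with BRSK1 (log2 difference 1.67 ± 0.24, adjusted p = 0.000942), and DUSP1 34.4 CPM (0.64 ± 0.09, adjusted p = 0.000942). JUNB, at 13.0 CPM with BRSK1 and 14.3 CPM in controls, also differed between the kinases (0.94 ± 0.12, adjusted p = 0.000134), as did SESN2 (0.51 ± 0.08, adjusted p = 0.0173). Of the 20 lowest genes 0 passed this test. The kinases were not at the same level: BRSK1 had a mean of 60600 CPM in the BRSK1 libraries and BRSK2 92000 CPM in its own. Kinase and level cannot be told apart in these differences. The count against BRSK1 fell to 7 without BRSK1 replicate 1 or BRSK2 replicate 3, to 8 without BRSK1 replicate 2, 12 without BRSK1 replicate 3, 15 without BRSK2 replicate 2, 22 without hcRED replicate 1 and 21 without hcRED replicate 3.

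The authors' deposited table for BRSK2 lists 723 genes. All 20 of the highest genes named here are in the authors' deposited table, and 16 of the 20 lowest. For SOCS3 the authors' deposited table gives a log2 fold change of 2.42 with an adjusted p of 1.51e-05, and for TMEM255A -0.87 with 0.00463.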

How the data were processed

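RNA-seq of 10 HEK293T samples was analysed, 7 of them in the comparison described. The count values are whole reads per gene as deposited by the authors, with no normalization; per the submitters' processing notes STAR, edgeR, limma and hg38 were used, without versions. How reads were assigned to genes, by strand or not, and with which annotation release is not stated there. The log2 fold changes and adjusted p-values of the authors' deposited table came from limma, per the file headers, and were only quoted. Both deposited count tables hold the same 4 control libraries. The labels' replicate numbers carry no stated batch.

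All 10 libraries entered 1 fit with 4 group means (R 4.3.3, edgeR 4.0.16, filterByExpr at 10 counts per library and 15 in total, TMM scaling, robust quasi-likelihood F test, Benjamini-Hochberg adjustment over 16936 genes), which gives every group a common estimate of spread. The contrast was BRSK2 minus the mean of the hcRED and Mock group means. Standard errors are the log2 fold change over the square root of F; log2 differences of single libraries used a prior count of 2. The fit was tested on simulated data with known changes. DESeq2 1.42.0 and limma 3.58.1 served as alternatives.

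Named genes were the 20 highest and 20 lowest by log2 fold change among genes called, at 5 CPM or more in the higher group and with the groups apart; the 8 largest gains and 8 largest losses of CPM; the 8 highest called genes under 1 CPM in controls; the neighbours of BRSK2 within 500 kb; and up to 4 members with the smallest p per gene family of at least 8 tested members. Other called members of families and the BRSK1 comparison were named afterwards. Members and lists were chosen with earlier results of these data known. The motifs searched in promoter windows were AP-1 (TGANTCA), the cAMP response element (TGACGTCA), NF-kB, the SRF CArG box, the NRF2 element core (TGACNNNGC), E-box (CANNTG), TATA box (TATAAA), GC box (GGGCGG), TEAD (GGAATG), SMAD (CAGACA), the heat shock element (GAANNTTC) and the C/EBP-ATF composite (TGATGCAA).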

Additional observations from a re-analysis of the deposited data

How the results depend on the processing

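Against the controls, scaling by library totals alone gave 3001 calls (494 higher, 2507 lower), hcRED as the only control 606 (376 and 230), Mock alone 333 lower, and an adjusted p under 0.01 479 (354 and 125). Leaving out single libraries gave 346 to 2211 calls, 274 to 1142 higher and 72 to 1069 lower. Other scalings and filters, DESeq2, limma-voom, a fit without robust estimation, a fit of the compared groups alone and pooled controls gave 1063 to 1508 calls. The share of BRSK2 stayed within 8.04% and 9.72% on leaving out single libraries. hcRED against Mock gave 128 calls with no filter, 3 with a filter of 1 CPM, 52 with DESeq2, 2 with limma-voom and 0 without robust estimation, with only the compared groups or at an adjusted p under 0.01; leaving out single libraries gave 0 to 49. BRSK2 against BRSK1 gave 206 under library totals, 188 with no filter, 190 with DESeq2, 14 without robust estimation, 20 with only the compared groups and 6 at an adjusted p under 0.01; leaving out single libraries gave 7 to 64. Over 24 alternatives the 245 named genes stayed on the same side of the threshold in 5217 results, lost the call in 531 and gained it in 72; 0 genes called at first changed sign, while uncalled ones such as MUC5AC (-1.12 to 5.71) and MOB2 (-0.06 to 0.12) did. The causes were not tested. At low levels, wide standard errors limit what could be called.

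With the replicate number as a block (replicate block), the counts were 2153 against the controls (969 lower), 433 for hcRED against Mock and 267 against BRSK1. The main fit did not take the numbers as pairing the samples, since the labels do not say what they mean. Deviations of libraries of the same number had correlations across genes from -0.1 (Mock and BRSK2 replicate 3) to 0.25 (BRSK1 and BRSK2 replicate 1). Of the 12 pairs 10 were above 0 and 5 above 0.1, short of the rule for pairing, every pair above 0.1. This rule cannot decide whether the numbers pair the samples. Within hcRED and within Mock the deviations mirror each other, and the groups do not all hold the same numbers. Pairing by number thus remains possible.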
